A study of Mus musculus and Homo sapiens with 18 samples.

Results

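The enzymes that make prostaglandins from arachidonic acid, the enzyme that degrades them, a pair of receptors for prostaglandin E2 and the inducible nitric oxide synthase Nos2 were followed in the mouse libraries of a bladder carcinoma study. The 10 genes, Ptgs1, Ptgs2, Ptges, Ptges2, Ptges3, Ptgis, Hpgd, Ptger2, Ptger4 and Nos2, were chosen by symbol from the 55858 genes of the mouse tables. RNA was sequenced from 12 mouse libraries in 4 groups of 3. One group came from tumours that had relapsed, in a genetically engineered mouse model (GEMM), after cisplatin and gemcitabine, and it was set against control tumours of that model; the labels' treatment text, written for all samples, names vehicle as the control. The other comparison was the mouse line CUUC-G carrying a guide RNA against Igfbp5 (sgIgfbp5), whose product is found outside cells and holds insulin-like growth factors, set against CUUC-G with a scrambled guide (sgScr). The targeted samples are called knockdowns in the labels and knockouts in the series design. The genotype of the model, the age and number of animals and whether replicates came from separate tumours or cultures are not given in the labels, so p-values measure the spread between these libraries, which may be technical. In the CUUC-G tables the columns marked mI were taken as sgIgfbp5, because the labels mark the targeted human libraries hI.

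Prostaglandin synthesis starts when phospholipases free arachidonic acid from membranes. The cyclooxygenases COX-1, from Ptgs1, and COX-2, from Ptgs2, turn it into prostaglandin H2, from which terminal synthases make prostaglandin E2 or prostacyclin. COX-1 is made in many cells at steady levels, whereas COX-2 is induced by cytokines and growth factors and is found in part of bladder carcinomas. Prostaglandin E2 acts on cells through receptors such as EP2 and EP4, which raise cyclic AMP, and is inactivated by the dehydrogenase encoded by Hpgd. Nos2 makes nitric oxide from arginine and is often induced by the same signals as Ptgs2.

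Promoter windows are shown for both cyclooxygenases and for the inducible prostaglandin E synthase Ptges, which moved together in the data below, and for Ptges3, which did not move with them. Each window runs from 250 bases before to 50 bases after the annotated start, 5′ to 3′ on the gene's strand, from RefSeq on GRCm38.p6. They are chr1:150099781-150100080 on the plus strand for Ptgs2, chr2:36230176-36230475 on the plus strand for Ptgs1, chr2:30903248-30903547 on the minus strand for Ptges and chr10:128058732-128059031 on the plus strand for Ptges3. Capitals mark matches, on either strand, to 7 motifs, namely the cAMP response element core CGTCA, the E-box CACGTG, the C/EBP palindrome TTGCGCAA, the GC box GGGCGG, the TATA box TATAAA, the AP-1 motif TGANTCA and the NF-kB motif of GGG, any 2 bases and TTTCC.
Ptgs2: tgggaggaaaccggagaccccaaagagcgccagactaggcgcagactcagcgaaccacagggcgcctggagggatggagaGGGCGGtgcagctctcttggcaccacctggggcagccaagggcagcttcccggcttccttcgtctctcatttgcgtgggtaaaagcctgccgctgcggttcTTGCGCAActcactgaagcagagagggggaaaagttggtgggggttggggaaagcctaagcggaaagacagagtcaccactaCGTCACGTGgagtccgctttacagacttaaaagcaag
Ptgs1: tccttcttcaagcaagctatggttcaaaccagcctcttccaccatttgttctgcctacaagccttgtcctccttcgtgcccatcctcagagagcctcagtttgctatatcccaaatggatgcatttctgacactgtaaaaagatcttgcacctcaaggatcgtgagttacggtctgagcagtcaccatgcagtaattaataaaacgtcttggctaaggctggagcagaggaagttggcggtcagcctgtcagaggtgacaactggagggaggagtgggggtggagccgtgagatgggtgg
Ptges: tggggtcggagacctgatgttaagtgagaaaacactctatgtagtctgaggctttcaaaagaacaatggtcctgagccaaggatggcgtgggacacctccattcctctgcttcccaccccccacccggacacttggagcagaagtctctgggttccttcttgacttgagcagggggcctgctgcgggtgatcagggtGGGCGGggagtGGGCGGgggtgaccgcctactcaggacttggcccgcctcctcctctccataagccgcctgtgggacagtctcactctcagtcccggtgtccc
Ptges3: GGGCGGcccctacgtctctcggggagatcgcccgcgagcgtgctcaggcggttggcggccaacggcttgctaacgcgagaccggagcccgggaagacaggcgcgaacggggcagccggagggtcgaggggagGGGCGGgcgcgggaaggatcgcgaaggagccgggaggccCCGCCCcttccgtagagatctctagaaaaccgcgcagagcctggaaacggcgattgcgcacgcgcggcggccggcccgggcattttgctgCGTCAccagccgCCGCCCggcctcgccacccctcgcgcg
In the Ptgs2 window CGTCA began at base 14 and CACGTG at base 17 after the start, sharing 2 bases, and TTGCGCAA began at base -69. Of 32851 mouse promoter windows of this length, 20.8% held CGTCA, 7.15% CACGTG and 0.183% TTGCGCAA. CGTCA was also found in the Ptges3 window, at base 12, and CACGTG in the window of Ptges2, at base -77. The Ptgs2 window held a GC box at base -170, the Ptges window 2, at bases -53 and -42, and the Ptges3 window 4. The GC box was found in 35.7% of windows. The Ptgs1 window held none of the 7 motifs, and TATAAA was found in 13.6%, TGANTCA in 7.81% and the NF-kB motif in 1.63% of all windows. Of the 10 genes, 8 had a window in the table, and Ptgis and Nos2 had none.

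Library totals lay between 18964942 and 21757109 estimated counts. Igfbp5 had 0.606, 0.393 and 0.47 CPM (counts scaled by library size) with sgIgfbp5 and 1.04, 2.56 and 2.31 CPM with sgScr, without overlap (edgeR adjusted p = 0.00125). Its CPM was 1.8, 3.19 and 2.4 in relapsed and 0.182, 0.894 and 0.302 in control tumours. Igfbp5 was low throughout CUUC-G, with 30 estimated counts over the sgIgfbp5 group and 114 over the sgScr group, where it averaged 0.443 TPM. It passed the low-count filter in both comparisons only through the group where it was high. The relapsed and control tumours differed in sex-linked genes, with Ddx3y, on the Y chromosome, at 0 counts in relapsed tumours and 74.2 CPM in control tumours, and Xist at 483.2 CPM in relapsed and 0.0845 CPM in control tumours. Every relapse result below moves with that difference, and they cannot be told apart here. In CUUC-G Ddx3y was at 0 counts in both groups, and Xist averaged 1425.9 CPM with sgIgfbp5 and 410.6 CPM with sgScr (edgeR adjusted p = 0.00046). Macrophage markers summed to 29.3 to 32 TPM (a level scaled by transcript length and library size) in relapsed and 6.53 to 8.37 TPM in control tumours, and to 6.95 to 10.4 TPM with sgIgfbp5 and 26.4 to 27.6 TPM with sgScr. Of these 10 markers Cd14 was the highest in each group, and the complement genes C1qa and C1qb were at 0 counts throughout. The T cell list summed to 1.23 to 2.44 TPM in relapsed and 14.2 to 22.3 TPM in control tumours, nearly all of it Lck, with Cd3e and Cd3d at 0 in both, and the mast cell list did not exceed 0.407 TPM in any library. The labelled tumours thus held little RNA of immune cells by these markers. Endothelial markers summed to 36.9 to 40 TPM in relapsed and 0.518 to 0.981 TPM in control tumours, almost all of it Kdr at relapse, with Cldn5 at 0 in both. Urothelial markers summed to 334.0 to 352.6 TPM in relapsed and 13.6 to 18.3 TPM in control tumours, with Upk3a and Krt5 at 0 in both. Fibroblast markers summed to 2361.9 to 2381.0 TPM in relapsed and 5679.4 to 5855.9 TPM in control tumours, and to 1250.2 to 1398.9 TPM with sgIgfbp5 and 2258.0 to 2474.8 TPM with sgScr, with Col1a1 highest. In CUUC-G the endothelial list summed to 2.49 to 3.35 TPM with sgIgfbp5 and 34.1 to 37.8 TPM with sgScr, and the urothelial list to 90.5 to 109.3 TPM with sgIgfbp5 and 334.1 to 342.4 TPM with sgScr. The T cell list summed to 20.4 to 25.9 TPM with sgIgfbp5 and 0.906 to 1.68 TPM with sgScr. Smooth muscle markers summed to 1166.7 to 1219.7 TPM in relapsed and 2506.0 to 2603.0 TPM in control tumours, and to 148.3 to 162.5 TPM with sgIgfbp5 and 1171.9 to 1218.7 TPM with sgScr. The libraries labelled relapsed tumours and the sgScr libraries were close in these levels, with Kdr at 37.9 TPM in relapsed tumours and 35.4 TPM with sgScr, Krt8 at 117.7 TPM in relapsed tumours and 124.1 TPM with sgScr, and Acta2 at 755.8 TPM in relapsed tumours and 773.4 TPM with sgScr. Since the labels give tumours for one and a cell line for the other, what the tumour libraries hold is uncertain, and each tumour value below is a value of libraries so labelled. In tumours, fewer cells of a type and less RNA per cell cannot be told apart, and the part of these cell types in the results was not tested.

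In relapsed tumours both cyclooxygenases, the inducible prostaglandin E synthase, prostacyclin synthase, both receptors and Nos2 were higher than in control tumours, by 1.93-fold to 39.4-fold. In CUUC-G the same 7 genes were lower with sgIgfbp5 than with sgScr, by 2.57-fold or more. Of the 10 genes 9 passed the low-count filter in each comparison and Hpgd passed in neither. At relapse 7 rose, 0 fell and 2 did not pass the test (edgeR quasi-likelihood test, adjusted p under 0.05). Among all 14373 genes tested there 36.6% rose and 36.9% fell. With sgIgfbp5 8 fell and 1 rose, and among all 14553 genes 34.3% fell and 36.5% rose. The counts of the related lists below are to be read against these shares. Since 73.5% and 70.8% of all genes were called, a call by itself says little, and sizes are given below for each gene. Changes of at least 2-fold upward were called for 13.2% of genes at relapse and downward for 16.8% with sgIgfbp5. The groups' CPM did not overlap for 7 of the 9 tested genes at relapse, against 75.3% of all genes, and for 9 of 9 with sgIgfbp5, against 73.9%. Nos2 passed the filter in both comparisons, and Ptger2 in CUUC-G, only through the group where it was high.

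**Figure D1:**
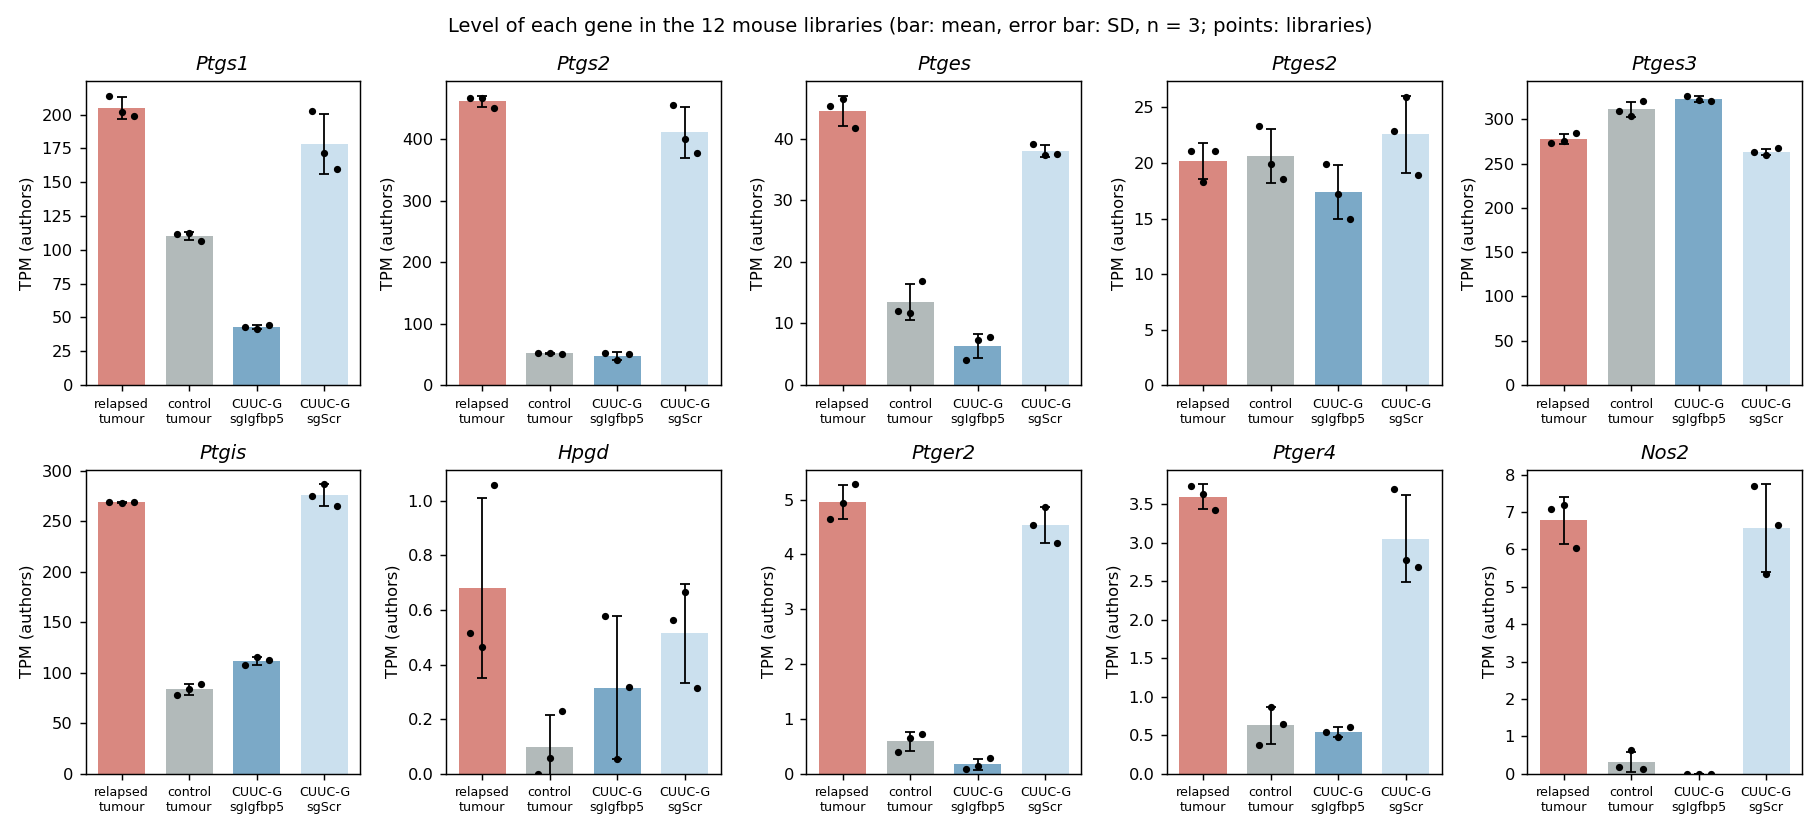
Level of each of the 10 genes in TPM, on axes that start at 0, for relapsed tumours, control tumours, CUUC-G sgIgfbp5 and CUUC-G sgScr; bars are means, error bars SD (n = 3) and points libraries. Ptgs2 lies at 461.5 TPM in relapsed and 51.7 TPM in control tumours, and the group means of Ptges3 lie between 263.6 and 322.9 TPM.

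Ptgs2 (ENSMUSG00000032487.9; GRCm38 chromosome 1, 150100031 to 150108227, plus strand), whose promoter window holds the joined CGTCA and CACGTG above, was the most abundant of the 10 genes at relapse. It had 467.4, 466.7 and 450.4 TPM in relapsed tumours, against 52.4, 52.3 and 50.4 TPM in control tumours. The groups did not overlap, and the log2 fold change of the counts was 3.30 ± 0.03 (SE, n = 3; edgeR adjusted p = 6.14e-32). By mean TPM Ptgs2 ranked 313 among all genes in relapsed tumours and 3245 in control tumours. In CUUC-G it had 52.6, 40.3 and 49.9 TPM with sgIgfbp5 and 456.3, 400.0 and 376.8 TPM with sgScr, again without overlap, a log2 fold change of -3.19 ± 0.11 (edgeR adjusted p = 8.81e-10). The levels with sgIgfbp5 and in control tumours overlapped, as did those in relapsed tumours and with sgScr.

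Ptgs1, which encodes COX-1, had a smaller fold change at relapse than Ptgs2. It had 214.1, 202.0 and 198.9 TPM in relapsed tumours and 111.6, 112.5 and 106.5 TPM in control tumours, a log2 fold change of 0.95 ± 0.04 (edgeR adjusted p = 2.53e-19). Among all genes 27.4% had a change of that size or larger in either direction, against 4.63% for Ptgs2. The sgIgfbp5 libraries had 42.8, 41.1 and 44.4 TPM, against 203.0, 171.9 and 160.0 TPM with sgScr, a log2 fold change of -2.23 ± 0.07 (edgeR adjusted p = 4.72e-10). Ptgs1 was the one cyclooxygenase whose sgIgfbp5 level lay below that of control tumours without overlap.

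The balance between the cyclooxygenases differed between groups. Ptgs2 made up 68.6, 69.8 and 69.4% of the summed TPM of Ptgs1 and Ptgs2 in relapsed tumours and 31.9, 31.7 and 32.1% in control tumours. The share was 55.2, 49.5 and 53% with sgIgfbp5 and 69.2, 69.9 and 70.2% with sgScr. In neither pair did the groups overlap, and the mean was 69.2% in relapsed and 31.9% in control tumours, and 52.5% with sgIgfbp5 and 69.8% with sgScr. The sum of both averaged 666.5 ± 16.2 TPM in relapsed and 161.9 ± 4.36 TPM in control tumours, and 90.3 ± 7.81 TPM with sgIgfbp5 and 589.3 ± 63.1 TPM with sgScr (SD, n = 3).

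A pair of noncoding genes beside Ptgs2, singled out after their values were seen, moved in the same directions. Ptgs2os2, also known as lincRNA-Cox2, lies downstream of Ptgs2 on the other strand (GRCm38 chromosome 1, 150159043 to 150164948), and is known in mouse macrophages as an RNA induced together with Ptgs2. It had 17.5, 20.6 and 20.6 CPM in relapsed and 0.365, 1.1 and 0.754 CPM in control tumours (log2 fold change 4.74 ± 0.20; edgeR adjusted p = 1.26e-17). With sgIgfbp5 it had 0.252, 0.246 and 0.611 CPM, against 17.8, 17.6 and 17.2 CPM with sgScr (log2 fold change -5.53 ± 0.24; edgeR adjusted p = 3.75e-09). Ptgs2os, which starts 68 bases from the Ptgs2 start and runs the other way, averaged 5.97 CPM in relapsed and 1.67 CPM in control tumours (edgeR adjusted p = 5.84e-08), and 2.14 CPM with sgIgfbp5 and 5.81 CPM with sgScr (edgeR adjusted p = 4.16e-05). Neither overlaps the annotated Ptgs2 gene. Ptgs2os2 passed the low-count filter in both comparisons only through the group where it was high.

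Of the 3 prostaglandin E synthases, the inducible one moved with the cyclooxygenases. Ptges encodes the microsomal enzyme that works mainly with COX-2. It had 45.4, 46.5 and 41.8 TPM in relapsed tumours and 12, 11.7 and 16.9 TPM in control tumours, a log2 fold change of 1.77 ± 0.08 (edgeR adjusted p = 8.29e-18). The sgIgfbp5 libraries had 4.1, 7.26 and 7.74 TPM, against 39.2, 37.4 and 37.6 TPM with sgScr, a log2 fold change of -2.40 ± 0.09 (edgeR adjusted p = 1.18e-09). Neither pair of groups overlapped. The rise of Ptges at relapse was smaller than that of Ptgs2, so that Ptgs2 over Ptges, both in TPM, was 10.3, 10 and 10.8 in relapsed and 4.36, 4.46 and 2.98 in control tumours. In CUUC-G this ratio was 12.8, 5.54 and 6.46 with sgIgfbp5 and 11.6, 10.7 and 10 with sgScr, which overlapped. The 12.8 came from sgIgfbp5 replicate 1, where Ptges had 4.1 TPM. The CPM of Ptges there was 10.4, close to 11.4 and 11.6 CPM in the other sgIgfbp5 libraries. On counts Ptgs2 fell more than Ptges with sgIgfbp5, with log2 fold changes of -3.19 ± 0.11 and -2.40 ± 0.09.

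Ptges2, a membrane-associated synthase made at steady levels, showed little change. It had 21.1, 18.3 and 21.1 TPM in relapsed tumours and 23.3, 19.9 and 18.6 TPM in control tumours, which overlapped (log2 fold change 0.11 ± 0.09, 95% interval from -0.06 to 0.28; edgeR adjusted p = 0.262). With sgIgfbp5 it had 21.4, 24.2 and 20.2 CPM and with sgScr 25.7, 29.1 and 29.3 CPM, a log2 fold change of -0.35 ± 0.10 (edgeR adjusted p = 0.00929), which did not pass with limma on log2(TPM + 1) (adjusted p = 0.0625). The CUUC-G groups did not overlap in CPM but did in TPM, with 19.9, 17.2 and 15 TPM with sgIgfbp5 and 22.9, 25.9 and 18.9 TPM with sgScr. Between 69.4 and 75.6% of its TPM in relapsed tumours and between 62.3 and 76.2% in control tumours was assigned to a 765-base retained-intron transcript, while the coding transcript Ptges2-201 had 5.14, 4.97 and 5.8 TPM in relapsed and 5.22, 6.23 and 4.87 TPM in control tumours.

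Ptges3, the cytosolic synthase that is also the HSP90 co-chaperone p23, was abundant in all groups. It had 273.8, 275.5 and 284.2 TPM in relapsed tumours and 309.2, 304.2 and 320.8 TPM in control tumours. These TPM did not overlap, whereas the CPM did. Its log2 fold change from counts was -0.04 ± 0.03 (95% interval from -0.10 to 0.03; edgeR adjusted p = 0.304), whereas limma on log2(TPM + 1) gave -0.16 (adjusted p = 0.00461), on a scale where the median of all genes was -0.12. With sgIgfbp5 it had 327.0, 321.5 and 320.3 TPM and with sgScr 263.4, 260.2 and 267.2 TPM, a log2 fold change of 0.22 ± 0.07 (edgeR adjusted p = 0.0168), the only increase among the 9 tested genes there. That call was lost when any library but sgScr replicate 3 was left out (adjusted p between 0.0618 and 0.0949) and with DESeq2 (adjusted p = 0.0582). Its processed pseudogene Ptges3-ps can share reads with it and held 51, 0 and 0 estimated counts with sgIgfbp5 and 180, 0 and 97 with sgScr. With the pseudogene's counts added, the calls of Ptges3 were the same, at 0.20 with sgIgfbp5 (edgeR adjusted p = 0.0253) and -0.06 at relapse (edgeR adjusted p = 0.127).

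**Figure D2:**
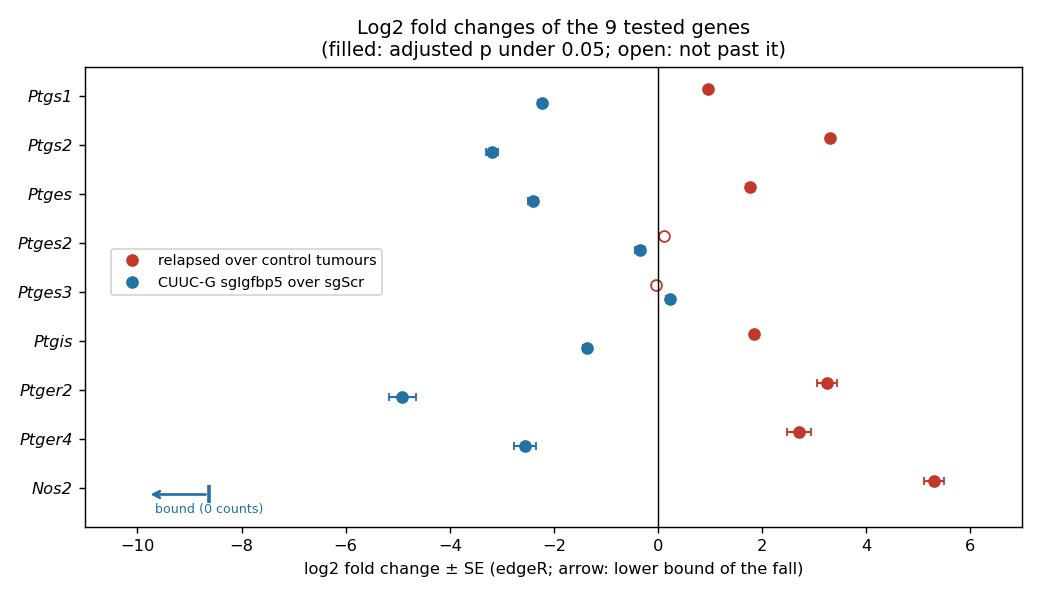
Log2 fold change ± SE (edgeR, n = 3 per group) of the 9 tested genes for relapsed over control tumours and for CUUC-G sgIgfbp5 over sgScr, with the bound for Nos2 in CUUC-G as an arrow. Ptgs1, Ptgs2, Ptges, Ptgis, Ptger2, Ptger4 and Nos2 lie right of 0 at relapse and left of 0 with sgIgfbp5, while Ptges2 and Ptges3 lie within 0.35 of 0.

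Ptgis, which encodes prostacyclin synthase, was more abundant than Ptges in every group. It had 268.8, 268.4 and 269.3 TPM in relapsed tumours and 78, 83.6 and 88.6 TPM in control tumours, a log2 fold change of 1.85 ± 0.04 (edgeR adjusted p = 4.24e-25). In CUUC-G it had 107.5, 115.3 and 112.5 TPM with sgIgfbp5, against 275.0, 286.5 and 265.1 TPM with sgScr, a log2 fold change of -1.36 ± 0.08 (edgeR adjusted p = 3.3e-08). Ptgis and Ptges compete for prostaglandin H2. Their ratio in TPM was 5.92, 5.77 and 6.44 in relapsed and 6.5, 7.12 and 5.25 in control tumours, which overlapped. With sgIgfbp5 it was 26.2, 15.9 and 14.5, against 7.02, 7.66 and 7.04 with sgScr, with all 3 sgIgfbp5 libraries above all 3 sgScr libraries. The 26.2 came from sgIgfbp5 replicate 1, whose low Ptges TPM was not matched in CPM. Among all genes 21.5% changed as much as Ptgis or more in CUUC-G, and 9.25% as much as Ptges. The antisense gene Gm14291 and the noncoding gene 1110018N20Rik overlap Ptgis on the other strand, and whether strand was used in counting is not given in the sources used here.

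Hpgd, the enzyme that inactivates prostaglandin E2, was nearly absent. Its estimated counts were 10, 9 and 21 in relapsed tumours and 0, 1 and 4 in control tumours, a ratio of 8.04 (exact 95% binomial interval 3.17 to 26.1, counting error only). With sgIgfbp5 they were 11, 1 and 6, against 10, 13 and 6 with sgScr, a ratio of 0.583 (interval 0.305 to 1.09). The highest library reached 1.06 TPM, and the CUUC-G groups overlapped. Without a low-count filter edgeR gave Hpgd a log2 fold change of 2.88 ± 0.86 at relapse (adjusted p = 0.00217) and -0.75 ± 0.69 with sgIgfbp5 (adjusted p = 0.402). Hpgd also passed the filter and rose at relapse when relapsed replicate 2 or any control replicate was left out (adjusted p between 0.00105 and 0.0115). In those fits it passed the filter only through the relapsed libraries, where it was higher.

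Genes that carry prostaglandins across membranes or reduce them further were measured as a separate list of 5. Of them 3 rose and 2 fell at relapse (median log2 fold change 0.27, against 0 over all genes), and 1 rose, 3 fell and 1 did not pass with sgIgfbp5 (median -0.23, against 0.06). Slco2a1, the transporter that takes prostaglandins up for degradation, averaged 143.3 CPM in relapsed and 47.4 CPM in control tumours (log2 fold change 1.60 ± 0.05; edgeR adjusted p = 3.5e-21) and 35.5 CPM with sgIgfbp5 and 143.7 CPM with sgScr (-2.02 ± 0.08; edgeR adjusted p = 1.85e-09). Ptgr1, a reductase of prostaglandins and leukotrienes, had a log2 fold change of 1.12 ± 0.07 at relapse and -2.65 ± 0.10 with sgIgfbp5. Abcc4, which exports prostaglandin E2 among other substrates, went the other way, with 54.7 CPM in relapsed and 143.4 CPM in control tumours and 99.1 CPM with sgIgfbp5 and 57.1 CPM with sgScr (log2 fold changes -1.39 ± 0.04 and 0.80 ± 0.10). Ptgr2 changed by 0.27 and -0.23 on the log2 scale, and Zadh2 by -0.33 at relapse, with -0.01 with sgIgfbp5, which did not pass.

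Both measured receptors for prostaglandin E2 among the 10 genes were low. Ptger2, which encodes EP2, had 4.65, 4.93 and 5.28 TPM in relapsed tumours and 0.396, 0.643 and 0.73 TPM in control tumours, from 710 and 75 estimated counts per group. The log2 fold change was 3.24 ± 0.19 (edgeR adjusted p = 1.41e-14). With sgIgfbp5 only 22 counts were left, against 630 with sgScr, or 0.0946, 0.135 and 0.288 TPM with sgIgfbp5 and 4.53, 4.86 and 4.21 TPM with sgScr. That is a log2 fold change of -4.91 ± 0.26 (edgeR adjusted p = 2.46e-08), and the ratio of the counts was 0.0328 (exact 95% interval 0.0204 to 0.0501). In both comparisons the groups did not overlap.

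Ptger4, which encodes EP4, had 3.74, 3.63 and 3.42 TPM in relapsed tumours and 0.378, 0.863 and 0.64 TPM in control tumours, a log2 fold change of 2.70 ± 0.23 (edgeR adjusted p = 4.34e-11). With sgIgfbp5 it had 0.537, 0.473 and 0.603 TPM, against 3.7, 2.78 and 2.68 TPM with sgScr, a log2 fold change of -2.55 ± 0.21 (edgeR adjusted p = 8.15e-07). Its levels with sgIgfbp5 lay within the range of control tumours, and the groups of each pair did not overlap. The protein-coding gene Ttc33 overlaps Ptger4 on the other strand and moved the other way, with a log2 fold change of -0.88 ± 0.08 at relapse and 0.88 ± 0.10 with sgIgfbp5. Ptger2 likewise has a pair of noncoding genes, Gm49364 and Gm17173, on its other strand.

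Of 7 other prostanoid receptors, 4 passed the filter in each comparison, with 1 rising, 1 falling and 2 not passing at relapse (median log2 fold change 0.03, against 0 over all genes), and 2 rising and 2 falling with sgIgfbp5 (median -1.56, against 0.06). Ptger3, for the EP3 receptor, averaged 1.09 CPM in relapsed and 0.289 CPM in control tumours (edgeR adjusted p = 0.00327) and 0.0978 CPM with sgIgfbp5 and 1.88 CPM with sgScr (edgeR adjusted p = 9.21e-06). The thromboxane receptor gene Tbxa2r had the opposite pattern, with 0.166 CPM in relapsed and 1.82 CPM in control tumours and 4.36 CPM with sgIgfbp5 and 0.208 CPM with sgScr (edgeR adjusted p = 1.52e-06 and 2.22e-06). Ptgfr, for the prostaglandin F receptor, fell with sgIgfbp5 to 0.0645 CPM, against 1.35 CPM with sgScr, and had 1.07 CPM in relapsed and 0.878 CPM in control tumours (edgeR adjusted p = 0.551). Ptger1, for EP1, had a log2 fold change of 1.06 ± 0.35 with sgIgfbp5 (edgeR adjusted p = 0.0187). Tbxa2r and Ptger3 passed the low-count filter in both comparisons, and Ptgfr in CUUC-G, only through the group where they were high. All of these mean levels were under 5 CPM, and the prostacyclin receptor gene Ptgir stayed at 0.116 CPM in relapsed and 0.182 CPM in control tumours.

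Nos2 (GRCm38 chromosome 11, 78920787 to 78960254, plus strand) had the largest fold change of the 9 tested genes in both comparisons. Its estimated counts were 383, 374 and 354 in relapsed tumours and 11, 10 and 7 in control tumours, or 7.09, 7.19 and 6.04 TPM in relapsed and 0.19, 0.625 and 0.136 TPM in control tumours. The log2 fold change was 5.30 ± 0.19 (edgeR adjusted p = 1.37e-19), which 1.79% of all genes matched or exceeded. In CUUC-G it had 0 counts in all 3 sgIgfbp5 libraries, against 410, 326 and 374 with sgScr. Taking 3 counts in the whole group as the floor, or 0.0488 CPM, it was at least 393.9-fold lower with sgIgfbp5 (edgeR adjusted p = 1.18e-08), counting error only. Control tumours, with 28 counts over the group, thus lay between the sgIgfbp5 and the sgScr level. Activated macrophages are a known source of Nos2 in mice, and the summed macrophage markers above moved with it, carried by Cd14. Among the other markers, C1qa, C1qb and Fcgr1 were at 0 counts in all 4 groups. Adgre1 and Itgam were at 0 counts in relapsed tumours and with sgScr, where Nos2 was high, but not in control tumours. With sgIgfbp5, Adgre1 was at 0 counts and Itgam was not. The part of macrophages in the Nos2 levels was not tested. The other nitric oxide synthases were near 0, with Nos1 at 0.0332 CPM in relapsed and 0.032 CPM in control tumours and Nos3 at 0.0994 CPM in relapsed and 0.0966 CPM in control tumours.

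Of 20 other genes of nitric oxide and arginine metabolism, 14 were tested at relapse, where 8 rose, 2 fell and 4 did not pass (median log2 fold change 0.32, against 0 over all genes), and 15 with sgIgfbp5, where 5 rose, 8 fell and 2 did not pass (median -0.33, against 0.06). Gch1, the first enzyme in the synthesis of the cofactor tetrahydrobiopterin that Nos2 needs, averaged 16.3 CPM in relapsed and 1.84 CPM in control tumours, a log2 fold change of 3.15 ± 0.16 (edgeR adjusted p = 2.96e-16). The sgIgfbp5 mean was 4.44 CPM, against 18.8 CPM with sgScr (-2.08 ± 0.14; edgeR adjusted p = 1.74e-07). Ddah1, which degrades an inhibitor of nitric oxide synthases, had log2 fold changes of 1.61 ± 0.06 and -2.27 ± 0.08. Arginine supply showed mixed directions. The arginine transporter Slc7a1 averaged 298.0 CPM in relapsed and 574.9 CPM in control tumours and 978.8 CPM with sgIgfbp5 and 301.2 CPM with sgScr. Ass1 and Asl act in turn to rebuild arginine from citrulline, and they moved apart, Ass1 by -3.64 ± 0.15 and Asl by 1.40 ± 0.10 on the log2 scale at relapse, and by 1.79 ± 0.21 and -1.95 ± 0.11 with sgIgfbp5.

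At the transcript level, which the tumour table alone gives, a single coding transcript held nearly all of Ptgs2, at 467.4, 462.3 and 448.7 TPM in relapsed and 52.4, 52.3 and 50.4 TPM in control tumours. Ptges was divided between the coding transcript Ptges-202, at 19.7, 19.6 and 20.4 TPM in relapsed and 6, 6.6 and 7.16 TPM in control tumours, and the 703-base transcript Ptges-201 without a defined coding sequence, at 25.7, 26.9 and 21.4 TPM in relapsed and 6, 5.14 and 9.72 TPM in control tumours. Both were thus higher at relapse. The coding transcript Ptgs1-201 held between 74.5 and 80.8% of the Ptgs1 TPM in relapsed and between 81.1 and 85.4% in control tumours. Ptgis-201 and Ptgis-202, both coding, were both higher at relapse, and Ptgis-201 held between 70.4 and 82.4% of the gene's TPM in relapsed and between 63.8 and 80.4% in control tumours. For low genes the division was unstable between libraries of a group. The coding transcript Nos2-203 held 32.3, 49.8 and 0% of the Nos2 TPM in the 3 relapsed libraries, and Ptger4-202 held 99.4, 41.7 and 77.9% of the Ptger4 TPM there and 0 in control tumours, and no change of transcript is read from these shares. No test was made on transcripts, whose assignment error is not given.

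**Figure D3:**
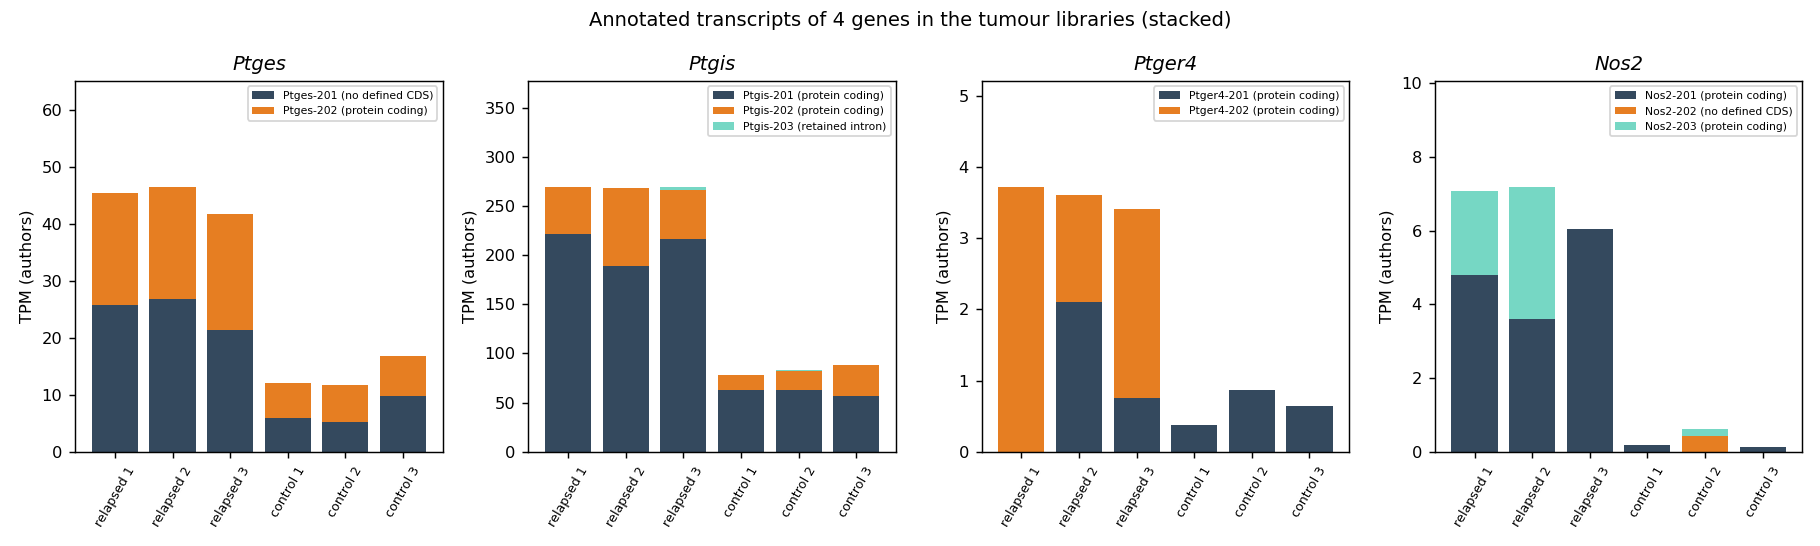
Stacked TPM of the annotated transcripts of Ptges, Ptgis, Ptger4 and Nos2 in the 3 relapsed and 3 control tumour libraries. Ptges-201, Ptges-202, Ptgis-201 and Ptgis-202 are higher in each relapsed library, while the split within Ptger4 and Nos2 differs among the relapsed libraries, from 0 to 49.8% for Nos2-203.

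Upstream of the cyclooxygenases, the genes listed for arachidonic acid release, phospholipases and the hydrolases Mgll and Faah, did not move as one group. Of 18 genes 8 were tested in each comparison, with 2 rising, 5 falling and 1 not passing at relapse (median log2 fold change -0.72, against 0 over all genes), and 3 rising, 3 falling and 2 not passing with sgIgfbp5 (median -0.45, against 0.06). Pla2g4a, the cytosolic phospholipase that supplies arachidonic acid to the cyclooxygenases, had 135.0, 135.4 and 134.5 CPM in relapsed and 131.3, 134.7 and 132.7 CPM in control tumours, which overlapped (log2 fold change 0.02 ± 0.04; edgeR adjusted p = 0.613). With sgIgfbp5 it had 44.4, 32.3 and 38.4 CPM, against 125.5, 127.0 and 125.5 CPM with sgScr (-1.72 ± 0.11; edgeR adjusted p = 7.25e-08). The secreted phospholipase gene Pla2g12a was lower at relapse (-1.42 ± 0.05) and higher with sgIgfbp5 (1.23 ± 0.10), and the lysosomal Pla2g15 had 1.00 ± 0.08 and -1.09 ± 0.09. Pla2g6, a calcium-independent phospholipase, rose with sgIgfbp5 (1.09 ± 0.11). Mgll, which frees arachidonic acid from an endocannabinoid, fell by 1.49 ± 0.16 at relapse, and Plaat3 by 0.88 ± 0.09.

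Synthases of the other prostanoids were mostly low. Ptgds and Hpgds, for prostaglandin D2, and Tbxas1, for thromboxane, averaged under 0.2 CPM in every group and were not tested. Of 8 such genes 4 were tested, with 2 rising, 1 falling and 1 not passing at relapse (median log2 fold change 0.23, against 0 over all genes) and 0 rising, 3 falling and 1 not passing with sgIgfbp5 (median -0.73, against 0.06). Akr1b3, an aldo-keto reductase that can make prostaglandin F2alpha, averaged 187.8 CPM in relapsed and 102.0 CPM in control tumours and 148.0 CPM with sgIgfbp5 and 192.8 CPM with sgScr (log2 fold changes 0.88 ± 0.05 and -0.38 ± 0.08). The carbonyl reductase gene Cbr1 had 0.51 ± 0.10 at relapse and -0.92 ± 0.12 with sgIgfbp5, Cbr3 -1.62 ± 0.19 with sgIgfbp5, and the prostamide synthase gene Prxl2b -1.02 ± 0.26 at relapse. A parallel list of 14 genes held lipoxygenase and leukotriene genes and the epoxide hydrolase gene Ephx2. Of them 3 were tested at relapse, with 1 rising and 2 not passing (median 0.42), and 4 with sgIgfbp5, with 1 rising and 3 falling (median -1.26). Alox5, Alox12, Alox15 and the leukotriene C4 synthase gene Ltc4s averaged under 1 CPM in every group, and the one abundant gene was Lta4h, for leukotriene A4 hydrolase, at 101.3 CPM in relapsed and 65.8 CPM in control tumours and 67.9 CPM with sgIgfbp5 and 106.1 CPM with sgScr. With sgIgfbp5 the epoxide hydrolase gene Ephx2 had a log2 fold change of -3.54 ± 0.26, Alox5ap -1.88 ± 0.50 and Aloxe3 2.54 ± 0.56, with no group mean above 5.73 CPM, and each passed the low-count filter only through the group where it was high.

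Among 14 cytokines and receptors known to induce Ptgs2 or Nos2, 11 were tested in each comparison. At relapse 8 rose, 2 fell and 1 did not pass (median log2 fold change 0.56, against 0 over all genes), and with sgIgfbp5 1 rose, 7 fell and 3 did not pass (median -0.55, against 0.06). The cytokine Il1a had 607 counts in relapsed and 3 in control tumours, a ratio of 203.4 (exact 95% interval 69.3 to 988.9), and 4 with sgIgfbp5 and 517 with sgScr, and it passed the filter in both comparisons only through the high group. Its receptor gene Il1r1 averaged 72.2 CPM in relapsed and 26.3 CPM in control tumours and 31.2 CPM with sgIgfbp5 and 67.4 CPM with sgScr (log2 fold changes 1.45 ± 0.07 and -1.11 ± 0.09). Il1rap, for a chain of that receptor, had 0.61 ± 0.07 and -2.13 ± 0.14. Tnfrsf1b, for a tumour necrosis factor receptor, had 0.77 ± 0.05 at relapse, and the interferon gamma receptor gene Ifngr1 had -0.73 ± 0.07 at relapse and 0.58 ± 0.08 with sgIgfbp5. Il1b, Tnf and Ifng, which are classical inducers, had at most 0.166 CPM on average in any group.

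Of 17 transcription factors and RNA-binding proteins known to act on Ptgs2 or Nos2, 8 rose, 6 fell and 3 did not pass at relapse (median log2 fold change 0.04, against 0 over all genes), and 8 rose, 6 fell and 3 did not pass with sgIgfbp5 (median 0.03, against 0.06). Cebpd, a C/EBP factor, averaged 83.6 CPM in relapsed and 11.2 CPM in control tumours and 12.8 CPM with sgIgfbp5 and 108.1 CPM with sgScr (log2 fold changes 2.90 ± 0.09 and -3.08 ± 0.10). Hif1a, the oxygen-regulated factor, changed by 1.07 ± 0.04 and -2.35 ± 0.12. Egr1, an immediate early factor that is known to bind the Ptges promoter, ran opposite to Ptges, at 40 CPM in relapsed and 321.8 CPM in control tumours and 324.2 CPM with sgIgfbp5 and 40.8 CPM with sgScr (-3.01 ± 0.04 and 2.99 ± 0.07). The RNA-binding protein gene Celf2, whose product restrains COX-2 translation, had -0.47 ± 0.07 at relapse and -2.92 ± 0.12 with sgIgfbp5. The increases of Zfp36l1 (1.22 ± 0.06) and Hnrnpd (1.09 ± 0.04), for proteins that bind AU-rich RNA elements, were smaller than that of Cebpd, and both fell with sgIgfbp5 (-0.31 ± 0.07 and -0.38 ± 0.09).

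Genes that cyclic AMP, the messenger of EP2 and EP4, is known to induce had no common direction with sgIgfbp5. Of 11 genes 6 rose, 1 fell and 4 did not pass at relapse (median log2 fold change 0.41, against 0 over all genes), and 3 rose, 4 fell and 4 did not pass with sgIgfbp5 (median -0.04, against 0.06). The largest of them at relapse was the phosphodiesterase gene Pde4b, with 0.99 ± 0.08, and it rose with sgIgfbp5 as well, by 0.34 ± 0.09. The phosphatase gene Dusp1 had 0.41 ± 0.06 at relapse and -1.64 ± 0.09 with sgIgfbp5, and the growth factor gene Areg had 0.63 ± 0.23 and -1.84 ± 0.32. The kinase gene Sik1 rose in both, by 0.42 ± 0.15 and 1.09 ± 0.14, the clock gene Per1 had -0.50 ± 0.06 and 0.49 ± 0.09, and Pde4d had 0.48 ± 0.14 and -0.61 ± 0.18. Nr4a2 and Crem passed in neither comparison, with 7.92 and 8.58 CPM in relapsed and 7.04 and 7.76 CPM in control tumours.

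**Figure D4:**
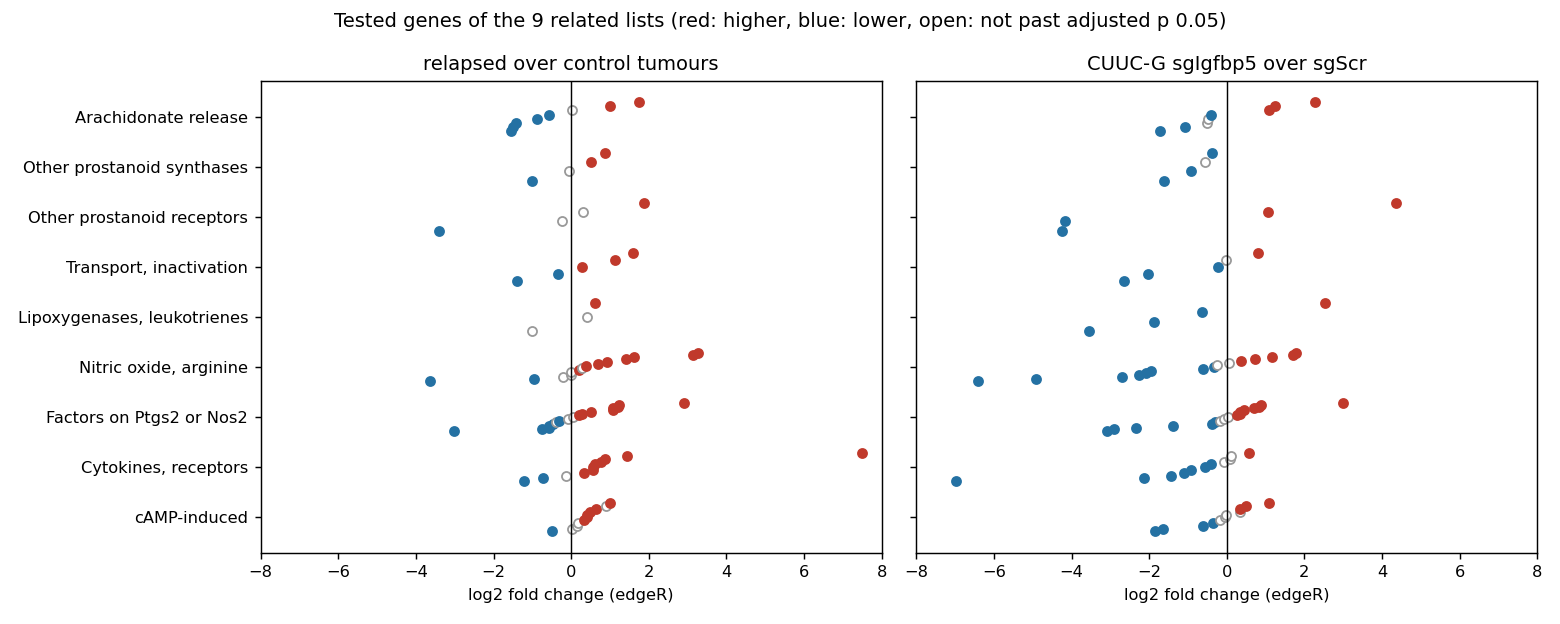
Log2 fold change (edgeR) of each tested gene of the 9 related lists, one dot per gene, for relapsed over control tumours and for CUUC-G sgIgfbp5 over sgScr. At relapse 39 of 77 tested genes rose and 20 fell, against 36.6% and 36.9% of all tested genes. With sgIgfbp5 24 of 79 rose and 39 fell, against 36.5% and 34.3% of all tested genes. Values of genes with few counts in one group, such as Il1a, depend on the fit's prior.

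The genes whose levels followed Ptgs2 most closely over the 12 libraries, by Pearson's r of log2(TPM + 1) among 11541 coding genes, were Tfpi, Ddx4, Il1rl1, Stc1 and Brinp3, each with r = 0.998. Tfpi encodes an inhibitor of coagulation, Il1rl1 the receptor of interleukin 33 and Stc1 the secreted glycoprotein stanniocalcin. Il1rl1 averaged 115.5 CPM in relapsed and 0.925 CPM in control tumours and 0.644 CPM with sgIgfbp5 and 107.0 CPM with sgScr. Brinp3 had 0 counts in control tumours and with sgIgfbp5. For Ptges the closest were Sc5d, Sox9, Steap3, Eno1 and Atp10a (r = 0.987 to 0.991), among them Sc5d of cholesterol synthesis and the glycolytic enolase Eno1. For Nos2 they were Jam2, Lrrc8d, Pmp22, Sprr2h and Gja1 (r = 0.995 to 0.997), among them Jam2, a junctional adhesion molecule, and the gap junction gene Gja1. The 12 libraries form 4 groups in 2 levels for most of these genes, so such values are a description of a shared order of groups.

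Set in order by TPM, relapsed tumours and sgScr cells held the upper levels and control tumours and sgIgfbp5 cells the lower ones for Ptgs1, Ptgs2, Ptges, Ptgis, Ptger2, Ptger4 and Nos2, the tables having been normalized separately and no test made between them. Relapsed tumours and sgScr cells overlapped for 6 of these 7, with Ptges the exception at 41.8 TPM or more in relapsed tumours and 39.2 TPM or less with sgScr. At the lower end Ptgs1, Ptges, Ptger2 and Nos2 were lower with sgIgfbp5 than in control tumours without overlap, Ptgis was higher, and Ptgs2 and Ptger4 overlapped. Ptges3 had the reverse order, with sgIgfbp5 and control tumours highest and overlapping. Ptges2 and Hpgd overlapped between each neighbouring pair of groups.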

How the data were processed

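Poly(A) RNA was prepared for sequencing with a strand-specific kit (labels' protocols). The authors deposited estimated counts and TPM from Salmon, per the submitters' processing notes, which give no version and name the mouse builds GRCm38 and mm10. The tumour table lists 147828 transcripts, summed here to 55858 genes, and the CUUC-G table lists genes. The deposited TPM were used as given. Library totals were 18964942 to 21757109 estimated counts. Positions are from GENCODE M21, in which 51460 of the identifiers were found, and the release the authors used is not given in the sources used here. The human MGHU3 libraries were not analysed here.

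Estimated counts were rounded to whole numbers and tested per comparison with edgeR 4.0.16 in R 4.3.3 (TMM scaling, default low-count filter, robust quasi-likelihood test), with p-values adjusted by Benjamini-Hochberg over all genes tested and a threshold of 0.05. CPM are estimated counts divided by the TMM-scaled library size. SE is the absolute log2 fold change over the square root of F. The procedure was tested on simulated data, in which 49 of 50 genes changed 2-fold were called for the tumour comparison and 42 of 50 for CUUC-G. Of the unchanged genes 6 and 9 were called. The simulation changed few genes, up and down alike and none of low mean count. It therefore does not cover change across most genes, as seen here, or low genes. Intervals on counts are exact binomial and cover counting error only. Alternatives used DESeq2 1.42.0, limma 3.58.1 on log2(TPM + 1), other scalings and filters, a replicate block and leaving out each library. Each of the 10 genes is named. From each related list up to 4 called genes with the smallest p were named per comparison, and for Ptgs2, Ptges and Nos2 the 5 coding genes with at least 1 TPM on average and the highest correlation; other names were added after values were seen. The 10 genes and the lists were chosen with earlier results of these data known. No pair of replicates was identical, and all differed by more than sampling noise.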

Additional observations from a re-analysis of the deposited data

How the results depend on the processing

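No call among the 9 tested genes reversed. At relapse 142 of 145 alternative values of these genes kept their side of the threshold; the others were Ptges3 under the 3 limma settings, where 1 gene fell instead of 0. The uncalled value of Ptges2 was -0.03 with limma, against 0.11. Hpgd, outside these values, was called up at relapse in 6 alternatives, which made 8 genes that rose instead of 7: without a low-count or TPM filter (edgeR and limma) and without relapsed replicate 2 or any 1 control replicate (adjusted p 0.00105 to 0.0296). Where a library was left out, Hpgd passed the filter only through the relapsed libraries. With sgIgfbp5 135 of 145 kept their side and 10 were weaker, 3 for Ptges2 with limma and 7 for Ptges3. The count of genes that rose with sgIgfbp5 was 1, and became 0 with RLE size factors, with DESeq2 and with a 2-fold minimum, and ranged from 0 to 1 when single libraries were left out. A 2-fold minimum cut the called genes of the related lists to 25 (16 up, 9 down), against 59 (39 up, 20 down), at relapse and to 36 (11 up, 25 down), against 63 (24 up, 39 down), with sgIgfbp5, by construction. With limma the median of all genes at relapse was -0.12. With library size alone that of CUUC-G was 0.17, against 0.06. Autosomal genes alone (7 up, 0 down at relapse; the same libraries, so no test of the sex-linked difference) and Ptges3 with its pseudogene's counts were added after the data were seen. Same-numbered libraries did not deviate together (r 0.006 to 0.015 in tumours, -0.082 to 0.093 in CUUC-G), and with a replicate block 7 and 9 of the 10 genes were called at relapse and with sgIgfbp5, the same as without it, so no member call changed under the pairing. Depth limits Hpgd, and Nos2 and Ptger2 in their low groups.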
